A study of Mus musculus with 12 samples.

Results

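The malate-aspartate shuttle was described here through the transcripts of its 7 genes, Got1, Got2, Mdh1, Mdh2, Slc25a11, Slc25a12 and Slc25a13, in mouse embryonic stem cells labelled as Pcbp1 knockout and in control cells. The 7 genes were found by symbol among the 55487 genes of the count table, and all 7 were among the 18134 genes that passed the filter on low counts. Got1 was chosen by its difference between KO and WT libraries, so its values in those comparisons are given as a description with no test. The other 6 genes were added for their biochemical role, with earlier results of these data known, and their tests are given.

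Polyadenylated RNA came from the mouse embryonic stem cell line E14 Tg2a, from clones in which Pcbp1 was knocked out (KO, 3 independent clones) and from 3 independent controls, which the sample labels call WT and the series text calls Scr. PCBP1 is an RNA-binding protein. Each clone was sampled in 2 conditions. Epiblast-like cells (EpiLCs), which model the early postimplantation epiblast, were obtained over 48 h on fibronectin with bFGF at 12 ng/ml, activin A at 20 ng/ml and 1% serum replacement. The naive condition was serum-free N2B27 medium with LIF, 1 µM of the MEK inhibitor PD0325901 and 3 µM of the GSK3 inhibitor CHIR99021. The 4 groups were EpiLC KO, EpiLC WT, naive KO and naive WT, with 3 libraries each, 1 per clone. All groups derive from 1 parental line, so the p-values judge differences against the spread between libraries of clones of that line. For EpiLC against naive the same clones stand in both groups, and the main fit has no term for the clone.

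The shuttle carries the electrons of cytosolic NADH into mitochondria, whose inner membrane NADH itself cannot cross. In the cytosol, the aspartate aminotransferase GOT1 converts aspartate and 2-oxoglutarate into oxaloacetate and glutamate, and the malate dehydrogenase MDH1 reduces that oxaloacetate to malate while oxidising NADH. The carrier SLC25A11 brings malate into the matrix in exchange for 2-oxoglutarate, MDH2 oxidises it there, and GOT2 converts the product to aspartate, which SLC25A12 (aralar) or SLC25A13 (citrin) exports in exchange for glutamate. MDH2 is also an enzyme of the TCA cycle, and the aspartate that leaves mitochondria is a precursor of proteins and nucleotides.

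Upstream sequences are shown for Got1, the member with the largest difference between genotypes, which carries no test. They are also shown for Slc25a13, the only tested member that passed the test in a KO against WT comparison. Each is the 250 bases before the RefSeq start (GRCm38.p6, 5′ to 3′ on the gene's strand), with motif matches in capitals.
Got1, chr19:43524606-43524855, minus strand: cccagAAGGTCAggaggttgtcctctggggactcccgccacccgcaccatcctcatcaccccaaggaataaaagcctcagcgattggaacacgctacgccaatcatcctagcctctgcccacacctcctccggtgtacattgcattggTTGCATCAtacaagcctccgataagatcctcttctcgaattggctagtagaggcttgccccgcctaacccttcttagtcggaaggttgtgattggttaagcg
Slc25a13, chr6:6217174-6217423, minus strand: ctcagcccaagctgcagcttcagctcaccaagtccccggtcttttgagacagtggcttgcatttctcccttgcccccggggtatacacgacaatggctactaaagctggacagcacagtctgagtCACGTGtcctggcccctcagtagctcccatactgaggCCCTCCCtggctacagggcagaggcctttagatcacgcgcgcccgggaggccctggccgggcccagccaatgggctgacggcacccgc
Got1 had a match to TGATGNAA, the core of the composite element bound by the amino acid response factor ATF4, on the opposite strand as TTGCATCA at position -102 from the start. It also had AAGGTCA, an element of the estrogen-related receptors, at -245. Slc25a13 had the E-box CACGTG at -125 and CCCTCCC, a C-rich stretch of the kind PCBP proteins bind in RNA, at -88. Slc25a11 had CCCTCCC at -216, and Got2, Mdh1, Mdh2 and Slc25a12 had no match to these or to GCGCANGC, the core of the NRF1 site. Both strands were searched and no matches overlapped. The windows were placed by the RefSeq start. Those of Slc25a11 and Mdh1 lie wholly inside the gene as annotated in the count table, and those of Got2 and Mdh2 partly inside it. In 32851 RefSeq promoter windows of this length, TGATGNAA occurred in 3.5%, AAGGTCA in 4.1%, CACGTG in 6.0%, GCGCANGC in 8.3% and CCCTCCC in 19.7%. A match describes the letters only.

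Libraries held 27146744 to 42204511 gene counts. Pcbp1 averaged 272.3 ± 26.5 CPM (counts scaled to library size) in EpiLC KO and 598.5 ± 90.3 CPM in EpiLC WT, and 300.2 ± 4.25 CPM in naive KO and 455.8 ± 32.8 CPM in naive WT (SD, n = 3 each), so its transcript was lower in the libraries labelled KO but still abundant. The edit that made the knockout is not given in the sources used here, so transcript counts do not show whether the protein was lost. Summed naive pluripotency markers were 215.7 to 683.5 CPM over all EpiLC libraries and 4717.1 to 5103.2 CPM over all naive libraries. Summed formative markers were 2939.5 to 5091.4 CPM in EpiLCs and 104.8 to 185.8 CPM in naive cells. Both sums differed in the direction the labelled conditions call for. The wide EpiLC ranges are those of EpiLC WT. In EpiLC KO the naive markers summed to 266.9 to 381.4 CPM and the formative markers to 3495.8 to 3673.1 CPM. Summed markers of some other cell types differed between genotypes in EpiLCs. Beside the counts of markers that rose or fell there, 7.22% of all genes tested rose and 7.86% fell in EpiLC KO, at an edgeR adjusted p under 0.05. The 10 endoderm markers summed to 36.5 to 48.4 CPM in EpiLC KO and 7.77 to 15.5 CPM in EpiLC WT, and 7 of the 9 that were tested rose, whereas in naive cells they summed to 2.79 to 7.44 CPM in KO and 2.85 to 13.8 CPM in WT. The 7 mesoderm markers summed to 15.4 to 21.1 CPM in EpiLC KO and 6.92 to 11.4 CPM in EpiLC WT, and 2 of 6 tested rose. Most of that sum was Eomes, which rose, at 15.7 CPM in EpiLC KO and 7.76 CPM in EpiLC WT. Gsc also rose, but averaged only 0.404 CPM in EpiLC KO and 0.1 CPM in EpiLC WT. In naive cells the 7 mesoderm markers summed to 22.5 to 39.6 CPM in KO and 29.1 to 34.5 CPM in WT, above both EpiLC groups. The 8 fibroblast markers summed to 21.4 to 27.7 CPM in EpiLC KO and 7.62 to 14.6 CPM in EpiLC WT, and 1 of 5 tested rose. The largest in EpiLC KO were Col1a2 and Pdgfra. Col1a2 did not pass the test, at 13.0 CPM in EpiLC KO and 3.36 CPM in EpiLC WT. Pdgfra rose, at 7.15 CPM in EpiLC KO and 1.23 CPM in EpiLC WT. In naive cells the 8 fibroblast markers summed to 12.5 to 14.1 CPM in KO and 13.5 to 16.6 CPM in WT. The 7 trophoblast markers summed to 34.0 to 42.2 CPM in EpiLC KO and 90.0 to 110.6 CPM in EpiLC WT. That sum was mostly the keratin gene Krt18, at 27.5 CPM in EpiLC KO and 85.1 CPM in EpiLC WT, the 1 of 5 tested that fell. In naive cells the 7 trophoblast markers summed to 96.8 to 123.1 CPM in KO and 82.6 to 104.8 CPM in WT. There 2 of 5 tested fell in KO, Krt8 and Krt18, beside 4.95% of all genes tested. The 6 neuroectoderm markers summed to 44.7 to 68.6 CPM in EpiLC KO and 34.6 to 79.8 CPM in EpiLC WT, which overlapped. In naive cells they summed to 39.8 to 51.5 CPM in KO and 51.5 to 77.0 CPM in WT. None of these markers was at 0 in every library, but several averaged under 1 CPM. They were the endoderm genes Sox17, Sox7, Foxa2, Afp and Ttr, the mesoderm genes Mixl1, Mesp1 and Tbx6, and the neuroectoderm genes Pax6, Neurog2 and Olig2. The trophoblast genes Elf5, Hand1 and Gata3 and the fibroblast genes Col3a1, Lum and Postn did so too. Sox17, Sox7, Foxa2 and Afp are among the 7 endoderm markers that rose in EpiLC KO. The part of such cells in the EpiLC values below was not tested.

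Got1 (ENSMUSG00000025190.13, GRCm38 chromosome 19, 43499752 to 43524605, minus strand) was the member with the largest difference between genotypes, and it was lower in KO cells of both conditions. It had 56.6, 53.6 and 56.9 CPM in EpiLC KO replicates 1, 2 and 3, against 199.1, 195.5 and 183.6 CPM in EpiLC WT. In naive cells it had 77.7, 85.2 and 81.0 CPM in KO, against 245.7, 283.2 and 245.9 CPM in WT. All 6 KO libraries lay below all 6 WT libraries, as they did for 1.68% of the genes tested. That separation is part of the difference by which Got1 was chosen. Within each genotype every EpiLC library lay below every naive library. Of all genes tested, 28.1% in KO and 26.3% in WT were lower in EpiLCs at an edgeR adjusted p under 0.05. The share of genes whose EpiLC and naive libraries did not overlap was not counted. From low to high, the group means were 55.7 ± 1.8 in EpiLC KO, 81.3 ± 3.78 in naive KO, 192.7 ± 8.13 in EpiLC WT and 258.3 ± 21.6 CPM in naive WT (SD, n = 3 each), with no overlap between neighbours in that order. In bulk RNA, fewer expressing cells and less RNA per cell cannot be told apart.

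**Figure D1:**
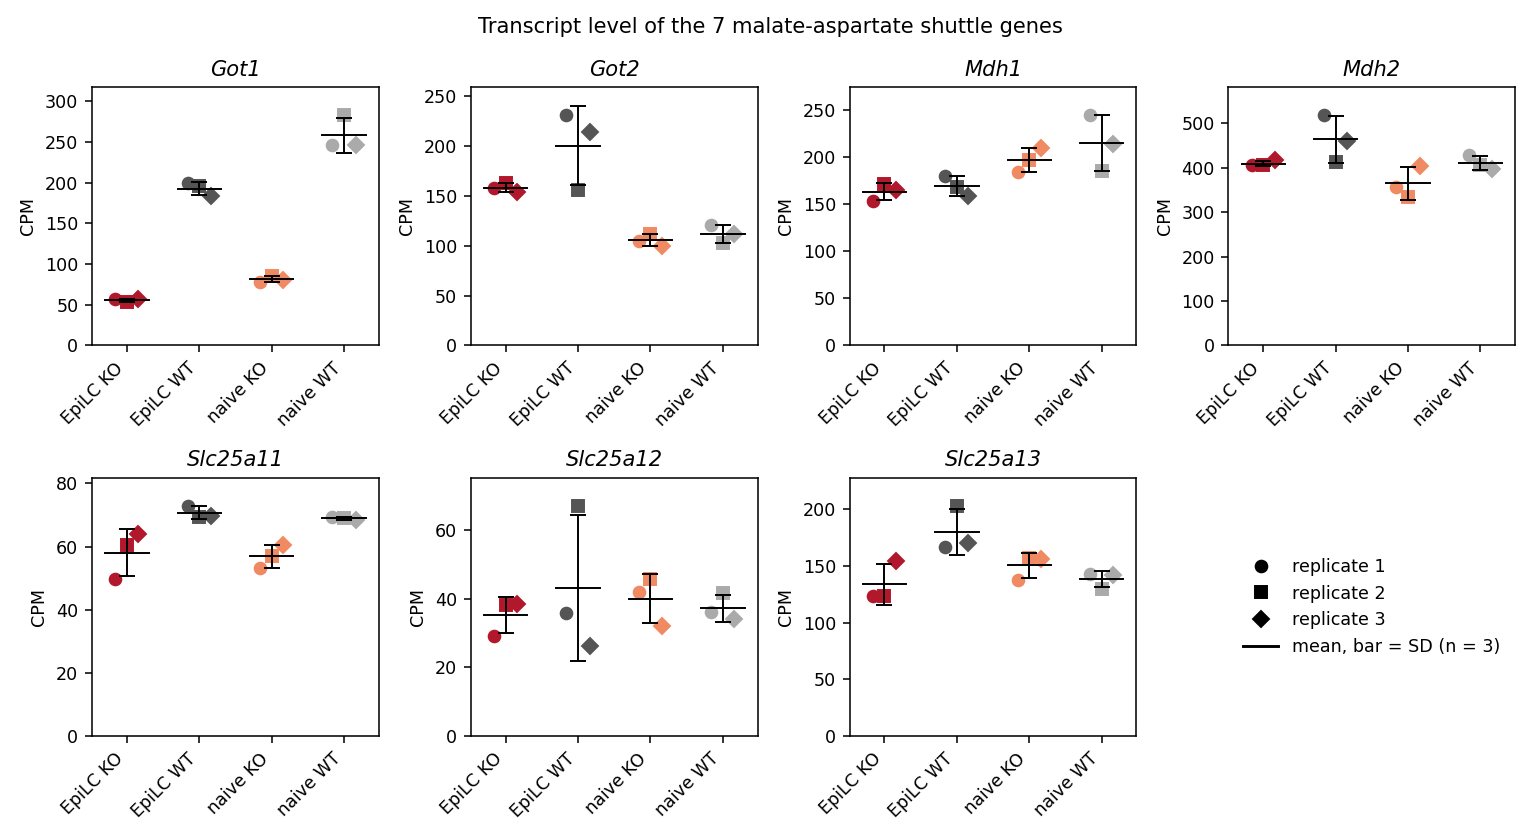
Transcript level of the 7 shuttle genes in each library, in CPM on a linear axis from 0, by group from EpiLC KO to naive WT; marker shapes are replicates, lines are means and bars are SD (n = 3). Got1 lies between 53.6 and 85.2 CPM in the 6 KO libraries and between 183.6 and 283.2 CPM in the 6 WT libraries, while the KO and WT values of Mdh1 overlap in both conditions.

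The log2 fold change of Got1, KO against WT, was -1.79 ± 0.0878 (SE) in EpiLCs, or 28.9% of the WT level, and -1.67 ± 0.0873 in naive cells, or 31.5%. Leaving out each library in turn kept it between -1.83 and -1.77 in EpiLCs and between -1.73 and -1.63 in naive cells. Among the 18134 genes tested, Got1 stood at rank 184 from the lowest log2 fold change in EpiLCs and at rank 469 in naive cells. The difference between the fold changes of both conditions was -0.12 ± 0.12 on the log2 scale. These values were part of why the gene was chosen and carry no test.

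Got1 also fell on the way from naive cells to EpiLCs, a comparison that did not enter its choice. EpiLC against naive, its log2 fold change was -0.55 ± 0.0857 in KO cells (edgeR adjusted p = 0.00016) and -0.42 ± 0.085 in WT cells (adjusted p = 0.00112), so EpiLCs held 68.5% of the naive level in KO and 74.6% in WT. Both fold changes passed the threshold of an adjusted p under 0.05, which defines a called gene throughout, in every fit that left out a library, with an adjusted p of at most 0.00148 in KO and 0.00714 in WT.

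Got2 (ENSMUSG00000031672.8, chromosome 8, 95864134 to 95888547), the mitochondrial partner of Got1, was higher in EpiLCs than in naive cells. It had 157.8, 162.9 and 153.7 CPM in EpiLC KO and 104.8, 111.7 and 99.8 CPM in naive KO. It had 230.8, 155.5 and 214.0 CPM in EpiLC WT and 120.2, 102.7 and 111.4 CPM in naive WT. Every EpiLC library lay above every naive library, and the log2 fold change, EpiLC against naive, was 0.58 ± 0.128 in KO (adjusted p = 0.00183) and 0.84 ± 0.128 in WT (adjusted p = 0.000139). Of all genes tested, 27.1% in KO and 26.4% in WT were called higher in EpiLCs, and the share without overlap was not counted. Gm45760, on the opposite strand, shares 434 bp, or 9.0%, of the exon sequence of Got2 and had at most 6 counts in a library.

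Between genotypes, Got2 was not called. In EpiLCs its log2 fold change, KO against WT, was -0.34 ± 0.127 (95% interval -0.62 to -0.06, adjusted p = 0.0921). EpiLC WT replicate 2, at 155.5 CPM, lay within the range of the KO libraries, whereas the other two WT libraries lay above it. Without that library the log2 fold change was -0.50 with an adjusted p of 0.00528. In naive cells the KO and WT libraries overlapped and the log2 fold change was -0.08 ± 0.128 (95% interval -0.36 to 0.20, adjusted p = 0.757).

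Mdh1 (ENSMUSG00000020321.16, chromosome 11, 21556692 to 21572367), the cytosolic malate dehydrogenase that uses the product of GOT1, was not called between genotypes. It had 153.4, 170.8 and 164.8 CPM in EpiLC KO, against 179.8, 168.4 and 158.2 CPM in EpiLC WT. It had 184.1, 196.3 and 209.5 CPM in naive KO, against 244.3, 184.7 and 213.9 CPM in naive WT. The genotypes overlapped in both conditions, with log2 fold changes, KO against WT, of -0.05 ± 0.106 in EpiLCs (95% interval -0.28 to 0.18, adjusted p = 0.792) and -0.12 ± 0.106 in naive cells (95% interval -0.35 to 0.11, adjusted p = 0.525).

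Like Got1, Mdh1 was lower in EpiLCs than in naive cells, with a smaller fold change and calls that rest on single libraries. Its log2 fold change, EpiLC against naive, was -0.27 ± 0.106 in KO (adjusted p = 0.045) and -0.34 ± 0.106 in WT (adjusted p = 0.0155). The KO call was lost in each fit that left out one of the 6 KO libraries, with adjusted p-values of 0.0599 to 0.196, and with DESeq2 (adjusted p = 0.0843). The WT call was lost without EpiLC WT replicate 3 (adjusted p = 0.0636) and without naive WT replicate 1 (adjusted p = 0.0701).

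Mdh2 (ENSMUSG00000019179.10, chromosome 5, 135778480 to 135790398), the mitochondrial malate dehydrogenase, was the most abundant of the 7 per length of transcript in every group, at 424.4 ± 6.45 TPM (counts scaled to transcript length and library size) in EpiLC KO, 439.8 ± 41.0 TPM in EpiLC WT, 366.0 ± 33.5 TPM in naive KO and 392.2 ± 7.39 TPM in naive WT (SD, n = 3 each). Its counts gave 406.3, 405.1 and 416.2 CPM in EpiLC KO, against 518.7, 411.8 and 461.1 CPM in EpiLC WT. In naive cells it had 356.0, 333.4 and 404.9 CPM in KO, against 428.0, 406.9 and 398.0 CPM in WT. The genotypes overlapped in both conditions. The log2 fold change, KO against WT, was -0.18 ± 0.0974 in EpiLCs (95% interval -0.39 to 0.03, adjusted p = 0.234) and -0.17 ± 0.0975 in naive cells (95% interval -0.38 to 0.04, adjusted p = 0.315). Between conditions Mdh2 was not called in KO (adjusted p = 0.168) or WT (adjusted p = 0.15), with a log2 fold change of 0.17 in each. It passed the threshold, at 0.28 in KO, without naive KO replicate 3 and, at 0.25 in WT, without EpiLC WT replicate 2.

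Slc25a11 (ENSMUSG00000014606.14, chromosome 11, 70644196 to 70647479), the carrier that exchanges malate for 2-oxoglutarate, lay slightly lower in KO cells of both conditions. It had 49.7, 60.6 and 64.0 CPM in EpiLC KO, against 73.0, 69.4 and 69.7 CPM in EpiLC WT. It had 53.1, 57.0 and 60.6 CPM in naive KO, against 69.4, 69.2 and 68.4 CPM in naive WT. All 6 KO libraries lay below all 6 WT libraries, as they did for 1.68% of the genes tested. The log2 fold change, KO against WT, was -0.28 ± 0.104 in each condition and was not called (adjusted p = 0.0849 in EpiLCs and 0.121 in naive cells, with 95% intervals of -0.51 to -0.06 and -0.50 to -0.05). The same clones were sampled in both conditions, so the 12 libraries are not independent clones. Rnf167, on the opposite strand, shares 189 bp, or 8.9%, of the exon sequence of Slc25a11. The counting took no account of strand as far as the file header shows, and under the tool's defaults reads in that stretch count for neither gene. Between conditions Slc25a11 was not called, with log2 fold changes of 0.03 in KO (adjusted p = 0.833) and 0.04 in WT (adjusted p = 0.793).

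Slc25a13 (ENSMUSG00000015112.15, chromosome 6, 6041218 to 6217173), the aspartate-glutamate carrier citrin, differed between genotypes in EpiLCs. It had 123.1, 123.6 and 154.5 CPM in EpiLC KO, against 166.4, 203.1 and 170.3 CPM in EpiLC WT. In naive cells it had 137.8, 156.8 and 156.4 CPM in KO, against 142.4, 130.0 and 142.2 CPM in WT, and the groups overlapped. KO against WT, its log2 fold change was -0.43 ± 0.114 in EpiLCs (adjusted p = 0.0251), or 74.3% of the WT level, and 0.12 ± 0.113 in naive cells (adjusted p = 0.566).

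The EpiLC call of Slc25a13 rests on few libraries. Its adjusted p was 0.102 when EpiLC KO replicate 1 was left out, 0.0869 when EpiLC KO replicate 2 was and 0.0618 when EpiLC WT replicate 2 was, and the call was also lost in a fit of the 6 EpiLC libraries alone (0.0885). EpiLC against naive, the gene rose in WT, with a log2 fold change of 0.38 ± 0.114 (adjusted p = 0.013), a call lost without EpiLC WT replicate 2 (0.0521) or naive WT replicate 2 (0.0642), and had -0.17 ± 0.113 in KO (adjusted p = 0.224). The test of the difference itself, the interaction of genotype and condition, gave -0.55 ± 0.16 with an adjusted p of 0.177, so the genotype effect was not shown to differ between EpiLCs and naive cells. With the clone as a replicate block, that adjusted p was 0.105.

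Slc25a12 (ENSMUSG00000027010.16, chromosome 2, 71271063 to 71367749), the aspartate-glutamate carrier aralar, was the least abundant member, with at most 31.3 TPM in any library. It had 29.2, 38.3 and 38.6 CPM in EpiLC KO, against 35.9, 67.2 and 26.4 CPM in EpiLC WT. It had 42.1, 45.9 and 32.2 CPM in naive KO, against 36.2, 41.6 and 34.0 CPM in naive WT. The groups overlapped, and EpiLC WT replicate 2 at 67.2 CPM was the highest of the 12 libraries. The log2 fold change in EpiLCs, KO against WT, was -0.29 ± 0.272 (95% interval -0.88 to 0.30, adjusted p = 0.518) and turned to 0.18 without that library. In naive cells it was 0.11 ± 0.271 (95% interval -0.48 to 0.69, adjusted p = 0.859). EpiLC against naive, it was -0.18 in KO (adjusted p = 0.592) and 0.21 in WT (adjusted p = 0.54), and the WT value was -0.26 without EpiLC WT replicate 2.

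**Figure D2:**
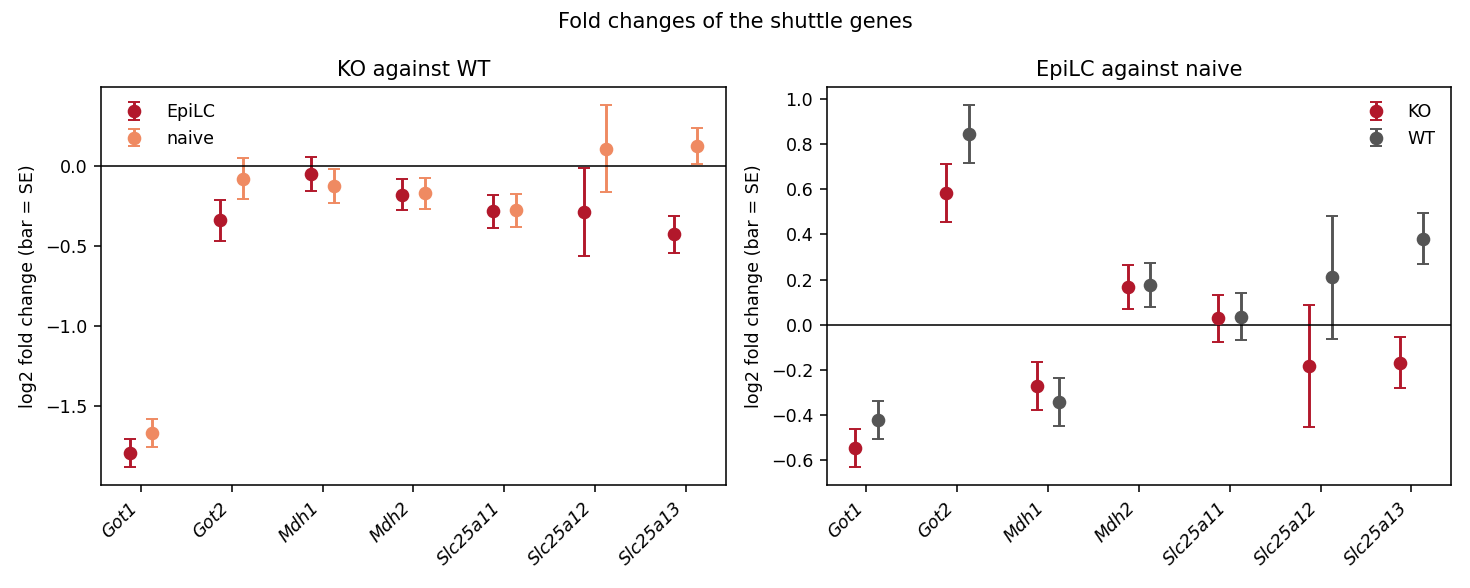
Log2 fold changes of the 7 shuttle genes with standard errors, KO against WT on the left (EpiLC and naive) and EpiLC against naive on the right (KO and WT). Got1 lies at -1.79 and -1.67 on the left, where the other 6 genes lie between -0.43 and 0.12, and on the right Got1 and Mdh1 lie below 0 and Got2 above 0 in both genotypes.

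Over the 6 members other than Got1, 1 of 6 was called in EpiLC KO against WT, Slc25a13, where 7.86% of the 18134 genes tested were called lower and 7.22% higher. Their log2 fold changes had a median of -0.29 and all 6 were below 0, beside a median of 0.00 over all genes tested. In naive KO against WT, 4.95% of genes were called lower and 4.27% higher, and 0 of the 6 were called by edgeR or DESeq2. There 1 gene, Slc25a11, had an unadjusted p under 0.05, and the median log2 fold change was -0.10. Between conditions, 3 of the 7 genes were called in KO, Got1 and Mdh1 lower and Got2 higher in EpiLCs, where 28.1% of genes were called lower and 27.1% higher. In WT, 4 of 7 were called, Got1 and Mdh1 lower and Got2 and Slc25a13 higher, beside 26.3% of genes called lower and 26.4% higher. The KO against WT and EpiLC against naive comparisons share libraries. In the interaction, 0.381% of genes were called, or 69 genes, and 228 were called with the clone as a replicate block. Of the 6 members 0 passed in edgeR, with or without that block, and 0 in DESeq2. Only Slc25a13 had an unadjusted p under 0.05 there, with an unadjusted edgeR quasi-likelihood p of 0.00469 and an adjusted p of 0.177.

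The balance of the cytosolic and mitochondrial aspartate aminotransferases was highest in naive WT and lowest in EpiLC KO. Per length, the Got1 to Got2 ratio of TPM was 0.681, 0.626 and 0.703 in EpiLC KO, against 1.64, 2.39 and 1.63 in EpiLC WT. It was 1.41, 1.45 and 1.54 in naive KO, against 3.88, 5.24 and 4.19 in naive WT. By TPM, Got2 thus stood above Got1 in EpiLC KO, and Got1 stood above Got2 in the other 3 groups. Where the ratio crosses 1 depends on the annotated exon lengths, 2539 bp for Got1 and 4824 bp for Got2. In CPM, which does not use length, Got2 was above Got1 in EpiLC WT (200.1 against 192.7) and in naive KO (105.5 against 81.3). Which of the genes had more transcripts in those groups is therefore not shown. EpiLC WT and naive KO lay next to each other, with a gap between them smaller than the spread within EpiLC WT. The ratio was lower in EpiLCs than in naive cells by 1.13 in KO and 1.25 in WT on the log2 scale, without overlap. The 2-sided exact permutation p was 0.1 in each, the smallest that 3 against 3 libraries allow when taken as independent. The same clones were sampled in both conditions, and that test left out this pairing, so it does not judge the change within clones. The KO against WT difference of the ratio contains the difference by which Got1 was chosen and carries no test.

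The malate dehydrogenases differed in the same direction between conditions. The Mdh1 to Mdh2 ratio of TPM averaged 0.533 ± 0.0296 in EpiLC KO and 0.49 ± 0.0495 in EpiLC WT, and 0.724 ± 0.0553 in naive KO and 0.697 ± 0.0806 in naive WT (SD, n = 3 each). EpiLCs lay below naive cells without overlap in both genotypes, with an exact permutation p of 0.1 in each, from the same test that left out the pairing by clone. The genotypes overlapped in both conditions (exact permutation p = 0.3 in EpiLCs and 0.8 in naive cells). The Slc25a12 to Slc25a13 ratio averaged 0.137, 0.121, 0.139 and 0.14 in EpiLC KO, EpiLC WT, naive KO and naive WT, so citrin was the main carrier of the pair by transcript level in every group.

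**Figure D3:**
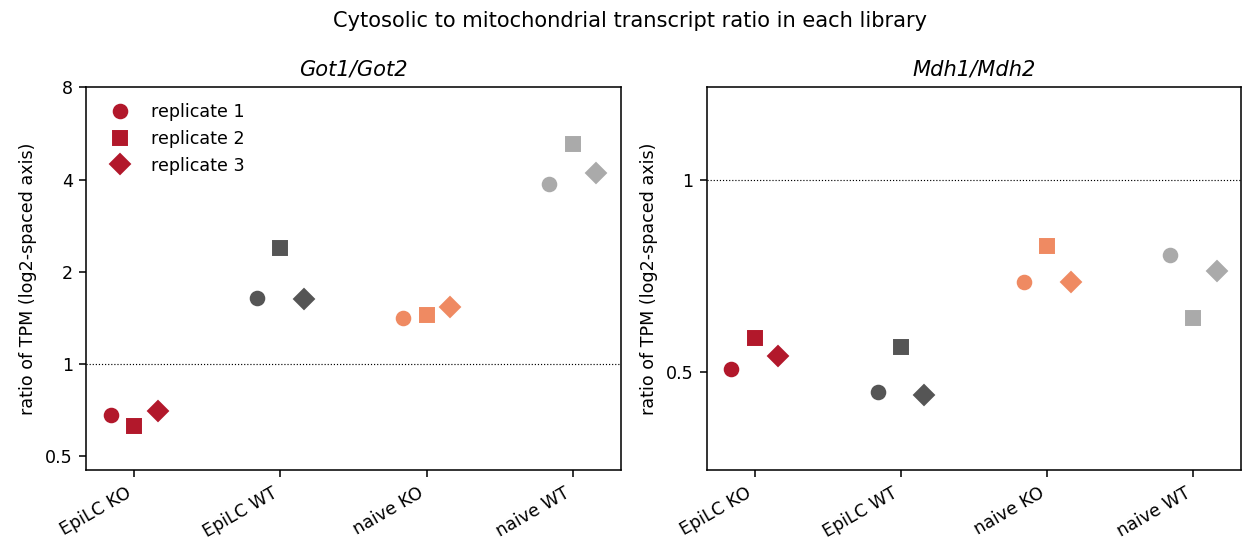
Ratio of TPM of the cytosolic to the mitochondrial aspartate aminotransferase (left) and malate dehydrogenase (right) in each library, on a log2-spaced axis. The dotted line marks equal TPM. Got1 to Got2 lies at 0.626 to 0.703 in EpiLC KO and 3.88 to 5.24 in naive WT, and Mdh1 to Mdh2 lies below 1 in every library and lower in EpiLCs than in naive cells.

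Summed over the 7 genes, the level was 1101.3 ± 21.8 TPM in EpiLC KO and 1344.0 ± 35.1 TPM in EpiLC WT, and 1080.4 ± 58.0 TPM in naive KO and 1342.1 ± 22.2 TPM in naive WT (SD, n = 3 each). Got1 made up 7.36% of this sum in EpiLC KO and 19.1% in EpiLC WT, and 10.6% in naive KO and 25.8% in naive WT. Without Got1, the other 6 genes summed to 1020.3 ± 24.2 TPM in EpiLC KO and 1087.3 ± 38.6 TPM in EpiLC WT, and to 965.8 ± 55.0 TPM in naive KO and 996.1 ± 50.8 TPM in naive WT. Most of the difference in the sum between genotypes was thus that of Got1. Of the cytosolic enzymes alone, Got1 plus Mdh1, Got1 was 26.4% in EpiLC KO and 54.5% in EpiLC WT, and 30.3% in naive KO and 55.9% in naive WT.

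Paralogs of the cytosolic enzymes were scarce. Got1l1, a paralog of Got1, averaged 7.6 ± 1.67 CPM in EpiLC KO and 8.89 ± 2.32 CPM in EpiLC WT (SD, n = 3 each, adjusted p = 0.548), and 9.8 ± 1.2 CPM in naive KO and 6.87 ± 0.756 CPM in naive WT (adjusted p = 0.193). Mdh1b, a paralog of Mdh1, had 18 counts over the EpiLC KO libraries, 4 over EpiLC WT, and 8 over each naive group, and did not pass the filter.

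The genes around Got1 did not have log2 fold changes as low as its own. The 5 tested genes on each side, over 1.51 Mb of chromosome 19, had a median log2 fold change, KO against WT, of -0.01 in EpiLCs (range -0.41 to 2.23) and 0.11 in naive cells (range -0.37 to 1.56). The lowest adjusted p among them belonged to genes above 0, at 0.0341 in EpiLCs for Golga7b (2.23) and 0.0488 in naive cells for Crtac1 (1.56). The nearest of the 10 by its start, Cnnm1, which encodes a membrane protein, was not called, with 0.81 in EpiLCs (adjusted p = 0.149) and 0.11 in naive cells (adjusted p = 0.921). The 10 neighbours of Slc25a11, within 0.14 Mb, had a median of -0.41 in EpiLCs and -0.10 in naive cells. Those of Slc25a13, within 2.62 Mb, had a median of 0.40 in EpiLCs and -0.08 in naive cells.

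**Figure D4:**
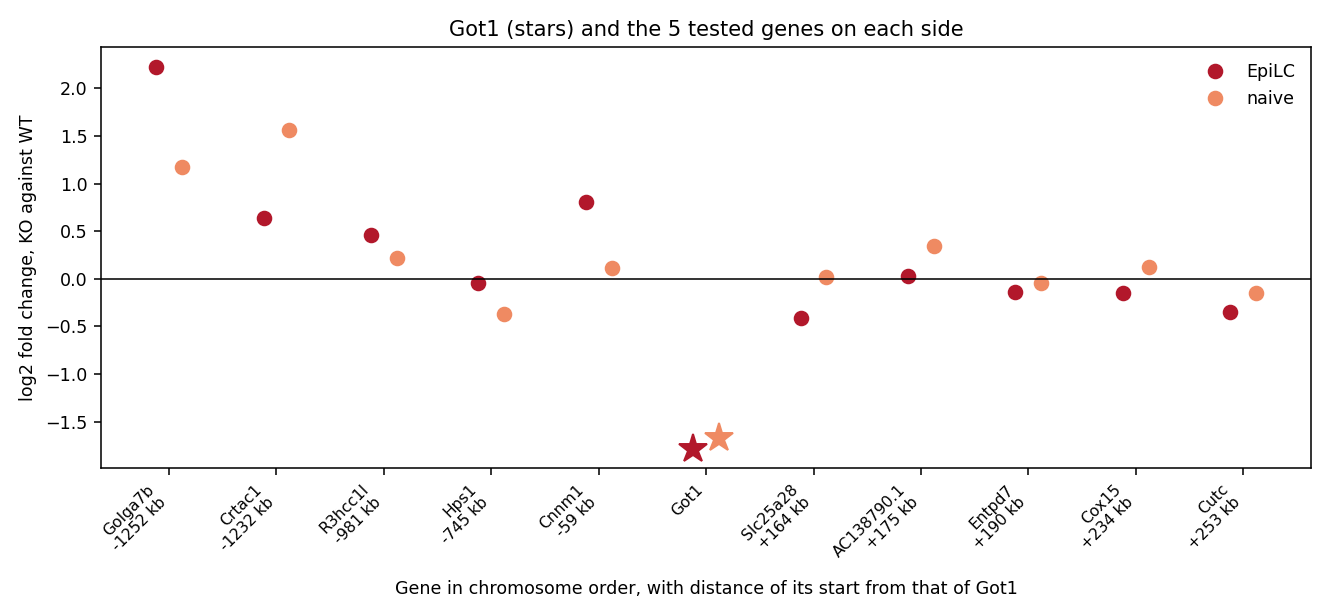
Log2 fold change, KO against WT, of Got1 (stars) and of the 5 tested genes on each side, in chromosome order and labelled with the distance of their starts from that of Got1 in kb, in EpiLCs (dark red) and naive cells (orange). The stars lie at -1.79 and -1.67, and the lowest of the neighbours at -0.41.

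The 5 genes whose log2 CPM followed Got1 most closely over the 12 libraries were Pigt (Pearson r = 0.988), a subunit of the transamidase that attaches GPI anchors; Ric8a (0.984), a chaperone of G protein alpha subunits; Mical1 (0.983), an actin-oxidising monooxygenase; the kinase gene Map4k1 (0.975); and the motor gene Myo1c (0.975). Each lies on another chromosome than Got1. Pigt averaged 21.8 CPM in EpiLC KO and 61.8 CPM in EpiLC WT, and 31.5 CPM in naive KO and 76.3 CPM in naive WT, the same order of groups as Got1. The log2 fold changes of the 5, KO against WT, were -1.51 to -0.88 in EpiLCs and -1.53 to -0.97 in naive cells. The 5 were picked by their correlation with Got1, so lower values in KO follow from that choice. The correlations are a description over libraries that share genotype, condition and clone. Among the members, Got1 correlated at 0.792 with Slc25a11, 0.409 with Mdh1 and 0.002 with Got2, and Got2 at 0.745 with Mdh2 and -0.615 with Mdh1 (n = 12).

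Genes of neighbouring metabolism were counted in 8 lists that leave out the 7 members. The shares over all genes tested, beside which the counts stand, were 7.86% lower and 7.22% higher in EpiLC KO, and 4.95% lower and 4.27% higher in naive KO. Among the other aminotransferases, 5 of 12 tested fell and 1 rose in EpiLC KO, with a median log2 fold change of -0.36. They included Bcat1 (-0.84 ± 0.129, adjusted p = 0.00158), which starts the breakdown of branched-chain amino acids, Psat1 (-1.42 ± 0.247, adjusted p = 0.00319) of serine synthesis and Gpt2 (-1.82 ± 0.327, adjusted p = 0.00379), the mitochondrial alanine aminotransferase. In naive KO only 1 of the 12 passed, Abat (1.71 ± 0.282, adjusted p = 0.0031), the GABA aminotransferase, which rose, and the median was -0.05. The lowest log2 fold change of the list was -1.82 in EpiLC KO and -0.87 in naive KO. Got1, which was chosen by its difference, had -1.79 and -1.67. In the interaction 0 of the 12 were called.

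Of 15 other enzymes that make or use aspartate or glutamate, 5 fell and 1 rose in EpiLC KO, among them Asns (-1.18 ± 0.109, adjusted p = 9.06e-05), which makes asparagine from aspartate, and Aldh18a1 (-1.47 ± 0.262, adjusted p = 0.0037) of proline synthesis. Their median log2 fold change was -0.03, with a range of -1.68 to 2.05. In naive KO 0 of the 15 were called by edgeR and 1 by DESeq2, with 2 at an unadjusted p under 0.05 in edgeR, and the median was -0.09. Of 6 SLC1 transporters, which carry acidic or neutral amino acids through the plasma membrane, 2 fell in EpiLC KO and 1 in naive KO, with medians of -0.26 and -0.58. The neutral amino acid carrier Slc1a5 fell in both, by 1.24 ± 0.193 in EpiLCs (adjusted p = 0.00164) and 0.68 ± 0.19 in naive cells (adjusted p = 0.0419). Its naive adjusted p was 0.139 when replicate 1 of naive KO was left out, 0.0933 for replicate 3 of naive KO, 0.118 for replicate 2 of naive WT and 0.057 for replicate 3 of naive WT.

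Other routes that reoxidise cytosolic NADH, the glycerol-3-phosphate shuttle and the lactate dehydrogenases, had 1 called gene of 6 in each condition, which fell, with medians of -0.35 in EpiLCs and -0.26 in naive cells. In EpiLC KO it was Ldhb (-1.26 ± 0.36, adjusted p = 0.0345), a lactate dehydrogenase subunit, whose adjusted p was 0.132 when replicate 1 of EpiLC KO was left out, 0.0942 for replicate 2 of EpiLC KO, 0.104 for replicate 1 of EpiLC WT and 0.0795 for replicate 3 of EpiLC WT. In naive KO it was Gpd1l (-0.71 ± 0.133, adjusted p = 0.00621), related to the cytosolic glycerol-3-phosphate dehydrogenase. EpiLC against naive in WT, 2 of the 6 rose and 1 fell, beside 26.4% of all genes called higher and 26.3% lower. Ldha rose by 2.37 ± 0.267 (adjusted p = 1.27e-05) and Gpd2, the mitochondrial glycerol-3-phosphate dehydrogenase, by 0.87 ± 0.157 (adjusted p = 0.00053). The lactate dehydrogenase gene Ldhc fell by 0.69 ± 0.24 (adjusted p = 0.0271), a call lost when EpiLC WT replicate 1 (adjusted p = 0.0654), EpiLC WT replicate 3 (0.0937) or naive WT replicate 2 (0.0781) was left out.

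Of 9 genes of the malate, citrate and pyruvate routes, 2 fell in each condition, with a median of -0.22 in each. The citrate carrier Slc25a1 fell in both, by 0.70 ± 0.124 in EpiLC KO (adjusted p = 0.00338) and 0.65 ± 0.123 in naive KO (adjusted p = 0.00711). Of 17 TCA cycle genes other than Mdh2, 6 fell in EpiLC KO, with Idh2 (-1.36 ± 0.143, adjusted p = 0.000181), the mitochondrial NADP-dependent isocitrate dehydrogenase, and the citrate synthase gene Cs (-0.48 ± 0.0765, adjusted p = 0.00189) among them, and the median was -0.22. In naive KO 2 of the 17 fell and 1 rose, with a median of -0.12. Of 24 other SLC25 carriers, 3 fell in EpiLC KO and 1 in naive KO, with medians of -0.03 and 0.03, and both counts are near the shares over all genes.

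ATF4, a transcription factor that induces amino acid synthesis and transport genes, was covered by a list of Atf4 and its targets that shares Asns, Psat1 and other genes with the lists above. In EpiLC KO 16 of the 20 fell, with a median of -1.45, and in naive KO 2 of the 20 fell, Shmt2 and Phgdh, with a median of -0.47. Both naive calls were lost in fits without single libraries, with adjusted p-values of up to 0.0995 for Shmt2 and 0.101 for Phgdh. In the interaction of genotype and condition, 1 of the 20 was called, Asns (edgeR adjusted p = 0.0165). The remaining 19, with Atf4 among them (adjusted p = 0.0653), were not, so their genotype effect was not shown to differ between conditions. Atf4 itself averaged 184.2 ± 10.9 CPM in EpiLC KO and 584.1 ± 79.9 CPM in EpiLC WT (log2 fold change -1.66 ± 0.172, adjusted p = 0.000172), and 348.2 ± 40.9 CPM in naive KO and 493.3 ± 134.0 CPM in naive WT (log2 fold change -0.50 ± 0.167, adjusted p = 0.0825; SD, n = 3 each). The part of ATF4 in the difference of Got1 was not tested. The list was chosen with its EpiLC difference in these libraries known.

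**Figure D5:**
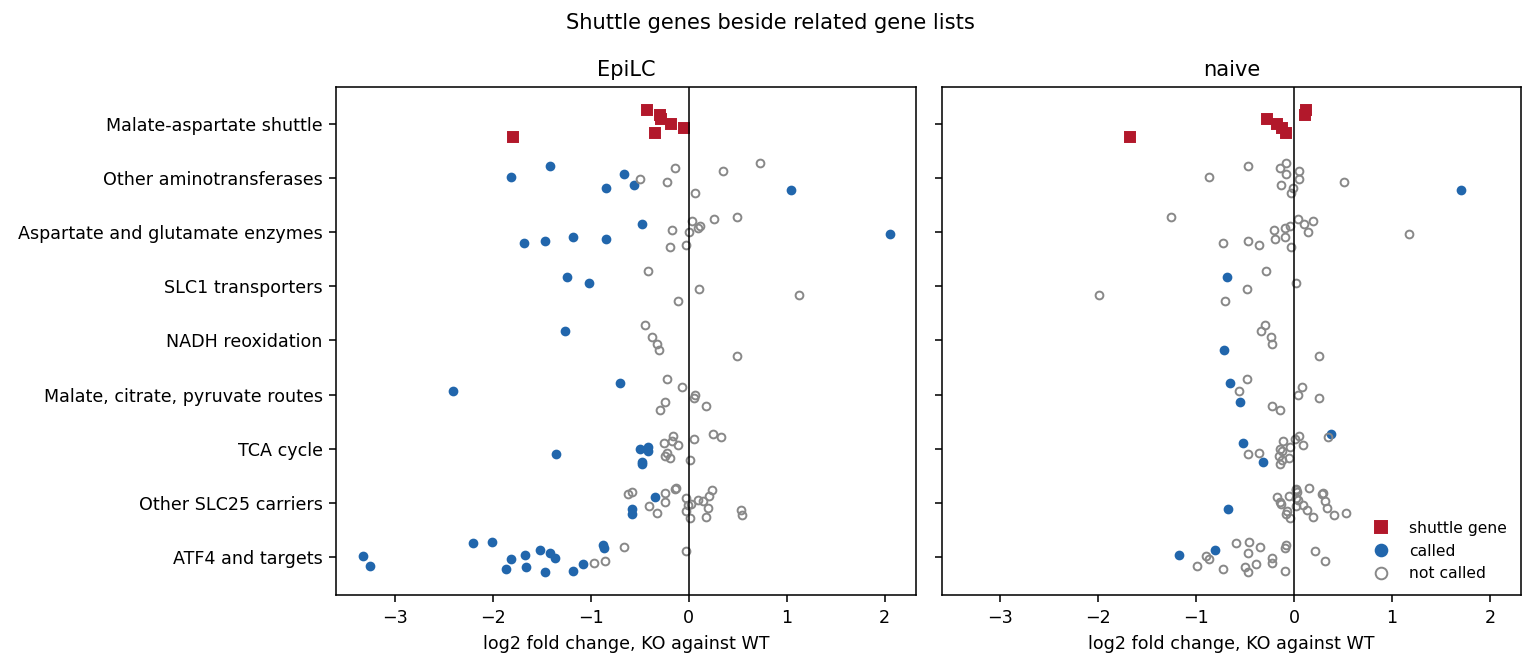
Log2 fold changes, KO against WT, of the 7 shuttle genes (red squares) and of the tested genes of 8 related lists (filled blue, called; open grey, not called), in EpiLCs on the left and naive cells on the right, on a shared axis. The lowest red square is Got1 at -1.79 and -1.67, and 16 of the 20 ATF4 list genes are called in EpiLCs against 2 in naive cells. In the interaction, which is not drawn, 1 of the 20 was called.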

How the data were processed

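The deposited table gives raw, unnormalised read counts for each gene. It was made with featureCounts 2.0.1 on GENCODE vM25, per the file headers, with no option shown for strand or for reads shared between genes. The submitters' processing notes name fastp, FastQC, STAR and DESeq2, and the mouse build GRCm38. Every count column was used. Of the genes, 346 have no symbol in the annotation used here and hold at most 0.0312% of the counts of a library.

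Counts were normalised by TMM and fitted in edgeR 4.0.16 (R 4.3.3; quasi-likelihood, all 12 libraries, group means, 8 residual degrees of freedom) after filterByExpr (minimum count 10, minimum total 15). Adjusted p is Benjamini-Hochberg over the 18134 genes tested, with a threshold of 0.05; SE is the log2 fold change over the square root of F, and intervals use its degrees of freedom. The fit was tested on simulated counts with 200 changed genes. TPM was computed from the counts and the exon lengths in the table. CPM is the TMM-scaled count.

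Same-numbered EpiLC and naive libraries of a genotype correlated at 0.201 to 0.316 in their deviations from the group means over 13737 genes, in all 6 pairs. Differently numbered ones correlated at -0.307 to 0.054, so numbers were taken to mark clones. The size of a correlation alone does not mark a clone, as EpiLC KO replicate 1 and EpiLC WT replicate 3 correlated at 0.363. DESeq2 1.42.0, RLE size factors, no filter, replicate blocks, fits of 6 libraries and leaving out each library were alternatives.

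The members and lists were chosen with earlier results of these data known. Named genes were the 7 members, their paralogs, Pcbp1, Atf4, up to 3 called genes per list and comparison with the smallest adjusted p, and the 5 most correlated with Got1 (mean at least 5 CPM). Some genes that this rule names are left out of the text. Neighbours named in the text, Slc25a11 in the 6 against 6 comparison and the marker genes were singled out after their values were seen. Sequences are from RefSeq (GRCm38.p6), which matched all 7 members.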

Additional observations from a re-analysis of the deposited data

How the results depend on the processing

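Of 402 alternative values of the members' log2 fold changes that carry a test, 356 kept their direction and their side of the threshold. The 39 of Got1 that carry no test kept their direction. The genes called in EpiLC KO against WT numbered 2734, and 1375 to 3117 without single libraries. In naive KO against WT they numbered 1673, 2516 with DESeq2, and 678 to 1744 without single libraries. In the interaction they numbered 69, against 564 with no filter, 516 with DESeq2, 30 with the replicate number as a replicate block, 228 with the clone as a replicate block, and 3 to 149 without single libraries. KO and WT libraries share only a number: their same-numbered deviations correlated at -0.316 to 0.021, the number as a replicate block gave 2552 genes in EpiLCs and 1608 in naive cells, and among the members it changed only the KO call of Mdh1 between conditions (adjusted p = 0.0634). That call was also lost with RLE size factors (0.0796) and no filter (0.0638). The clone block changed no member's call.

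Directions that turned belong to values that were not called. Without single libraries, the log2 fold change of Slc25a12 ranged from -0.55 to 0.18 in EpiLC KO against WT, from -0.031 to 0.208 in naive KO against WT, from -0.26 to 0.47 between conditions in WT, and from -0.651 to 0.075 in the interaction. That of Slc25a11 ranged from -0.044 to 0.133 between conditions in KO and from -0.081 to 0.096 in the interaction, where RLE size factors and DESeq2 gave 0.009. That of Mdh2 in the interaction ranged from -0.088 to 0.119 and was 0.007 with RLE size factors and DESeq2 and 0.001 with the clone block. The cause was not tested.

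Each group held 3 clones, every member had at least 26.4 CPM in every library, and the intervals of members that were not called give the differences these libraries leave possible.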
